A study of Mus musculus with 6 samples.

Results

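Bmf and 9 other genes of the BCL2 family were described in osteocyte-like cells in which parathyroid hormone (PTH) was set beside YKL-05-093, a small molecule that inhibits salt-inducible kinases. The study reports that the compound also acts on other kinases in vitro. It reports too that, for most genes it measured, the response to the compound depended on the salt-inducible kinases SIK2 and SIK3. Some genes still responded where both were lacking. Whether the differences below depend on these kinases was not tested. The 10 genes were chosen by symbol, among 39179 genes listed, because Bmf and Bcl2 had already stood out as responding to YKL-05-093 in these same libraries, so their own values are a description and carry no test here. The cells were Ocy454, a mouse osteocytic line used as 1 single-cell subclone, kept for 14 days at 37 °C and then exposed for 4 h to vehicle, to 1 nM PTH or to 0.5 µM YKL-05-093. The labels give the vehicle of these cells as PBS with 25 mM HCl, whereas the study's methods name DMSO as the solvent of compounds in culture. RNA depleted of ribosomal RNA was sequenced in 2 libraries per condition, 6 in all, and each gene is given in RPKM, reads scaled to gene length and to the total reads of the library. The question was how far the kinase inhibitor acts on RNA levels as the hormone does, here for the genes that set the threshold of mitochondrial apoptosis.

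BCL2 family proteins decide whether the outer membrane of the mitochondrion is opened, the step that releases cytochrome c and starts the caspases. The effectors BAX and BAK form the pore, the pro-survival proteins BCL2, BCL-XL and MCL1 hold the effectors and their activators, and the BH3-only proteins BMF, BIM, PUMA, NOXA and BID antagonise the pro-survival proteins or activate the effectors. In bone, osteocytes are long-lived cells, and PTH is known for its effects on the survival of osteoblasts and osteocytes.

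For Bmf, Bcl2 and Bcl2l11, the 250 bases before their RefSeq start sites (build GRCm38.p6) are shown so that their regulatory sequence can be read beside their values. They were not picked by size of difference alone. Bid, whose window is not shown, differed more from vehicle than Bcl2l11. Its log2 fold changes were -0.78 with YKL-05-093 and -0.49 with PTH, those of Bcl2l11 0.57 and 0.27. Bmf lies on chromosome 2, minus strand, at chr2:118528757-118549687, Bcl2 on chromosome 1, minus strand, at chr1:106538178-106714274, and Bcl2l11, which encodes BIM, on chromosome 2, plus strand, at chr2:128126038-128162547. The windows are chr2:118549687-118549936 for Bmf, chr1:106714291-106714540 for Bcl2 and chr2:128125788-128126037 for Bcl2l11, each written 5′ to 3′ on the strand of its gene. Capitals mark TGACG or its complement CGTCA, the half-site of the cAMP response element at which CREB binds, and GTAAACA or TGTTTAC, a FOXO site.
Bmf: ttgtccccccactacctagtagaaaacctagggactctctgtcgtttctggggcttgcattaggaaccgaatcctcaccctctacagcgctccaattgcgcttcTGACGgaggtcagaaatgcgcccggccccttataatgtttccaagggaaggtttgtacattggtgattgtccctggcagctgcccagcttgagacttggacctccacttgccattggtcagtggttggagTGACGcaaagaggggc
Bcl2: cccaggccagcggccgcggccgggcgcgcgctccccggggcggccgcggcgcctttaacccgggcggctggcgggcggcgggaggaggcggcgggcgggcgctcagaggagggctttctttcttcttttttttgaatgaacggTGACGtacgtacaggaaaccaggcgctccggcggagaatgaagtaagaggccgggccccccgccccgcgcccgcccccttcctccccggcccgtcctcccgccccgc
Bcl2l11: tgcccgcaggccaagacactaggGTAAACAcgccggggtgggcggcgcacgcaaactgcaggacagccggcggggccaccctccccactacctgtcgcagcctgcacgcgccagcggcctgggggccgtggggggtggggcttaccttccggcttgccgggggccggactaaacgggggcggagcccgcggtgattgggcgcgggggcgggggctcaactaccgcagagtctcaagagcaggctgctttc
Bmf held the half-site at -146 to -142 and again at -16 to -12 from its start, and Bcl2 held it once, at -107 to -103. Bcl2l11 held no half-site and 1 FOXO site, at -227 to -221. Among all 32851 RefSeq windows of this length, searched on both strands, 17.8% held the half-site and 3.17% the FOXO site. The full cAMP response element TGACGTCA, which contains the half-site, was in 1.55% of all windows and in none of the 16 windows of the 9 members that the table holds. Of these 9 members, in the window nearest to the gene's annotated start, 3 held the half-site (Bmf, Bcl2 and Bbc3), 1 held the FOXO site, 6 held the GC box GGGCGG (32.7% of all windows) and 1, Bax, held the E-box CACGTG (6.02% of all windows). The GC box was found 7 times before Bcl2 and 3 times before Bcl2l11, and was not found in this window of Bmf. Bmf has 2 further RefSeq starts, and their windows held none of these motifs. A matched string is only a description of the letters, and gene-level RPKM do not tell which start was used.

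The libraries held between 17505798 and 27983585 counted reads, and the members between 79 reads (Pmaip1 in PTH library 2) and 5422 reads (Mcl1 in vehicle library 2), so that Pmaip1 and Bbc3 rest on the fewest reads. The vehicle libraries stood further from each other than the other pairs: the median difference between the 2 libraries over 14264 genes was 0.33 on the log2 scale in vehicle, 0.11 in PTH and 0.10 in YKL-05-093. Over the 10 members it was 0.27, 0.13 and 0.05. Standard errors (SE) were larger for every member in the 2 comparisons that use vehicle than in PTH against YKL-05-093. Of 8 osteocyte markers, Sost, Fgf23 and Mepe stayed under 0.5 RPKM in every library (Sost and Fgf23 at no more than 3 reads), Dmp1 (0.376 to 1.15 RPKM) and Phex (0.764 to 4.93) were low, and Pdpn (53.1 to 171), Sp7 (11.1 to 46.0) and Pth1r, the PTH receptor (33.4 to 70.7), were abundant. The 8 summed to between 154 and 182 RPKM in vehicle, 210 and 227 with PTH and 183 and 199 with YKL-05-093. Pdpn was highest with PTH (171 and 163 RPKM, against 53.1 and 71.3 in vehicle). Sp7 (12.2 and 11.1 RPKM, against 46.0 and 45.5) and Pth1r (38.5 and 33.4, against 52.1 and 63.4) were lowest with PTH. The 5 osteoblast markers, led by Col1a1 and Ibsp, were all present and summed to between 664 and 769 RPKM in vehicle, 811 and 987 with PTH and 836 and 1096 with YKL-05-093. Unlike the sum, Runx2 was lower with both agents. It measured 19.5 and 13.0 RPKM in vehicle, 7.87 and 7.02 with PTH and 11.6 and 12.6 with YKL-05-093. Of 12 markers of other cell types, 10 stayed under 0.5 RPKM in every library. The exceptions were Cd68, at 3.69 to 4.42 RPKM, and Col2a1, at 0.577 to 1.71 RPKM. The 12 summed to between 4.68 and 4.81 RPKM in vehicle, 5.40 and 6.27 in PTH and 4.89 and 5.24 in YKL-05-093, and the part of these 3 lists in the results was not tested. In bulk RNA, fewer cells expressing a gene and less of its RNA per cell cannot be told apart.

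Among the BH3-only genes, Bmf differed most between conditions. BMF is held at the dynein light chain of myosin V motors and is freed by loss of attachment and other stresses. Bmf measured 1.24 and 0.740 RPKM in the 2 vehicle libraries, 1.38 and 1.02 RPKM with PTH, and 2.88 and 2.83 RPKM with YKL-05-093. Both YKL-05-093 libraries were above all 4 others, whereas the PTH and vehicle libraries overlapped. The mean with YKL-05-093 was 2.85 ± 0.04 RPKM (SD, n = 2), against 0.991 ± 0.36 in vehicle, a ratio of 2.88, and the lower YKL-05-093 library was 2.28 times the higher vehicle library. With PTH the mean was 1.20 ± 0.25 RPKM, 1.21 times vehicle. The log2 fold change, taken on log2 of RPKM plus 0.1, was 1.48 (SE 0.24) for YKL-05-093 against vehicle, 0.28 (SE 0.26) for PTH against vehicle and -1.20 (SE 0.13) for PTH against YKL-05-093. The reads behind these values were 165 and 157 in vehicle, 226 and 148 with PTH and 443 and 445 with YKL-05-093. The PTH value changed sign, to -0.06, without vehicle library 2, the lowest of the 6.

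Bcl2l11, the gene of BIM, a strong activator of BAX and BAK, followed the same order at smaller size. It measured 4.16 and 3.07 RPKM in vehicle, 4.21 and 4.45 with PTH, and 5.31 and 5.40 with YKL-05-093. The lower YKL-05-093 library was 1.28 times the higher vehicle library, while the PTH libraries cleared vehicle by a factor of only 1.01. The log2 fold changes were 0.57 (SE 0.19) for YKL-05-093 and 0.27 (SE 0.19) for PTH, each against vehicle, and -0.30 (SE 0.08) for PTH against YKL-05-093.

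Bid pointed the other way. BID, from chr6:120891930-120916853 on the minus strand, is cut by caspase 8 and carries death receptor signals to the mitochondrion. It measured 10.4 and 11.4 RPKM in vehicle, 8.08 and 7.40 with PTH, and 6.65 and 6.00 with YKL-05-093. The 3 pairs of libraries did not overlap, with vehicle highest and YKL-05-093 lowest. Mean Bid was 29.0% below vehicle with PTH (log2 fold change -0.49, SE 0.16) and 42.0% below with YKL-05-093 (-0.78, SE 0.16). Up to 628 bases of a Bid exon overlap an exon of Bcl2l13 on the opposite strand (at most 6.56 RPKM in any library), and the use of strand in counting is not given in the sources used here, so some reads may belong to the neighbour. Bcl2l13 itself had log2 fold changes against vehicle of -0.15 with PTH and 0.04 with YKL-05-093.

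Of the 2 BH3-only genes best known as p53 targets, Bbc3 had means in the same order as Bcl2l11, and Pmaip1 differed little. Bbc3 (chr7:16308393-16318205, plus strand), the gene of PUMA, measured 2.65 and 3.51 RPKM in vehicle, 3.90 and 3.53 with PTH, and 3.86 and 4.38 with YKL-05-093. Its log2 fold changes against vehicle were 0.27 (SE 0.20) with PTH and 0.42 (SE 0.20) with YKL-05-093. Mean Bbc3 was 20.6% above vehicle with PTH and 33.7% above with YKL-05-093. The YKL-05-093 libraries cleared vehicle by a factor of 1.10, the PTH libraries by only 1.01, and the agents overlapped. Pmaip1 (chr18:66458533-66465565, plus strand), the gene of NOXA, which binds MCL1, measured 2.14 and 2.03 RPKM in vehicle, 1.86 and 1.57 with PTH, and 1.96 and 1.92 with YKL-05-093. Its log2 fold changes were -0.27 (SE 0.19) with PTH and -0.10 (SE 0.18) with YKL-05-093.

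Of the pro-survival genes, Bcl2 differed most. It measured 3.77 and 2.60 RPKM in vehicle, 1.80 and 1.50 with PTH, and 1.03 and 1.09 with YKL-05-093. No pair of conditions overlapped: every PTH library was below every vehicle library and above every YKL-05-093 library. Mean Bcl2 was 3.19 ± 0.83 RPKM (SD, n = 2) in vehicle, 1.65 ± 0.21 with PTH and 1.06 ± 0.04 with YKL-05-093, so that it was 48.3% below vehicle with PTH and 66.8% below with YKL-05-093. The log2 fold changes were -0.89 (SE 0.21) and -1.48 (SE 0.21), and 0.59 (SE 0.13) for PTH against YKL-05-093. The reads behind them were 475 and 523 in vehicle, 279 and 206 with PTH and 150 and 162 with YKL-05-093. An exon of D630008O14Rik overlaps Bcl2 by up to 497 bases on the opposite strand, and this gene did not exceed 0.111 RPKM.

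Mcl1 and Bcl2l1, which encode the other pro-survival proteins, moved far less. Mcl1 (chr3:95658788-95663176, plus strand), whose protein turns over fast, measured 54.0 and 48.8 RPKM in vehicle, 53.9 and 49.2 with PTH, and 42.2 and 40.7 with YKL-05-093. Its PTH and vehicle libraries overlapped, and both YKL-05-093 libraries were below them, with a mean 19.4% below vehicle (log2 fold change -0.31, SE 0.17). Bcl2l1 (chr2:152780668-152831728, minus strand), the gene of BCL-XL, measured 5.17 and 5.46 RPKM in vehicle, 4.65 and 4.56 with PTH, and 4.55 and 4.43 with YKL-05-093. Both agents gave means below vehicle, by 13.3% with PTH and 15.4% with YKL-05-093, and the log2 fold change between the agents was 0.03 (SE 0.09). Bcl2l1 makes a long pro-survival and a short pro-apoptotic transcript, which gene-level values do not separate.

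The effectors were close to level. Bax (chr7:45461697-45466898, minus strand) measured 54.5 and 72.8 RPKM in vehicle, 74.4 and 68.8 with PTH, and 69.8 and 67.3 with YKL-05-093, and the vehicle pair spanned almost the whole range. Bak1 (chr17:27019810-27029009, minus strand) measured 10.4 and 11.6 RPKM in vehicle, 11.0 and 10.5 with PTH, and 8.97 and 9.97 with YKL-05-093. Against vehicle, the log2 fold changes of Bax were 0.18 (SE 0.19) with PTH and 0.12 (SE 0.19) with YKL-05-093, and those of Bak1 were -0.03 (SE 0.16) and -0.22 (SE 0.16).

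**Figure D1:**
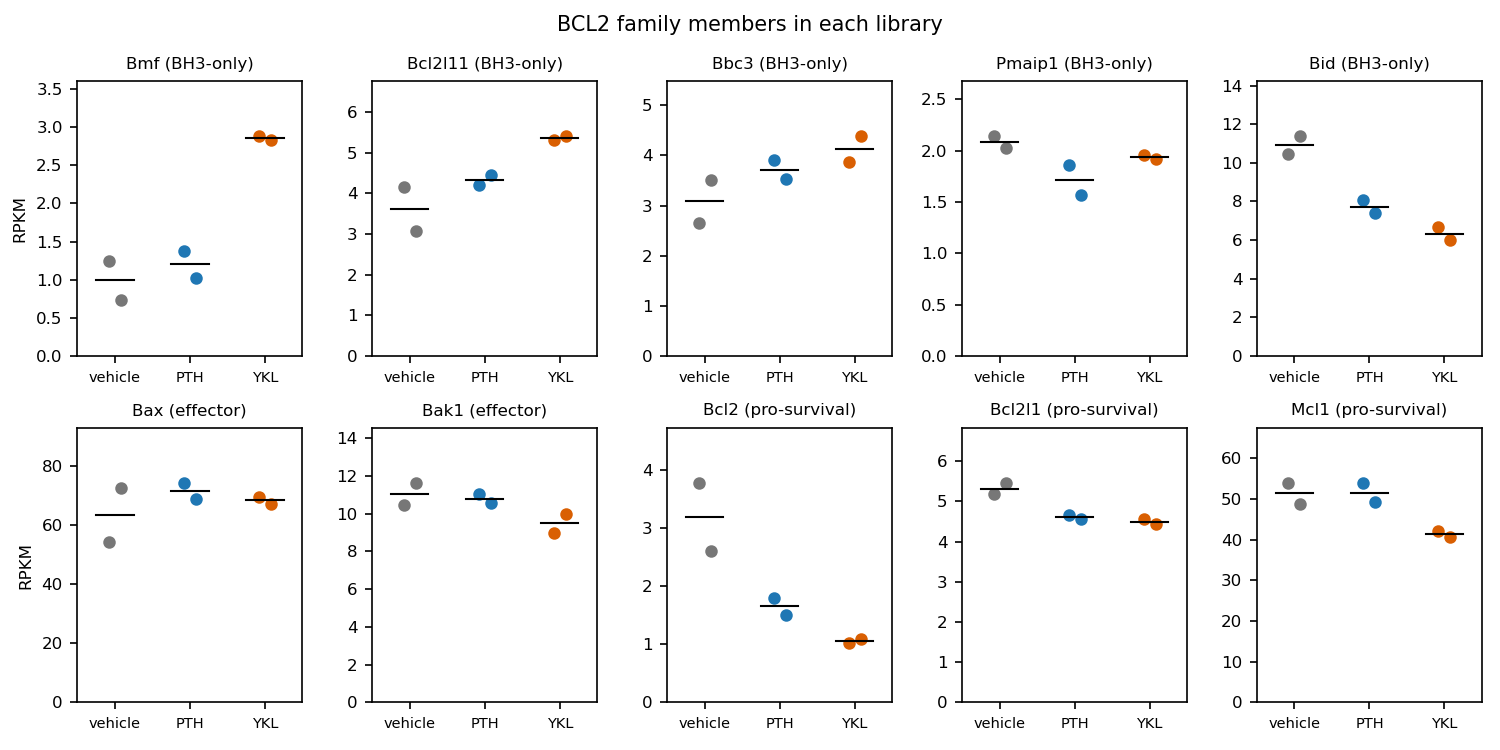
RPKM of the 10 members (vertical axes, each from 0) in the 2 libraries of vehicle, PTH and YKL-05-093 (horizontal axes, YKL for YKL-05-093), with each point a library and each line a mean of 2. Bmf was highest in both YKL-05-093 libraries (2.88 and 2.83 RPKM), and Bcl2 stepped down from vehicle (3.77 and 2.60) to PTH (1.80 and 1.50) to YKL-05-093 (1.03 and 1.09).

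All 10 members passed the filter on low values, and the log2 fold changes of Bmf and Bcl2 moved with the choice of vehicle library. For YKL-05-093 against vehicle, Bmf gave 1.81 without vehicle library 1 and 1.14 without vehicle library 2, and Bcl2 gave -1.22 and -1.74. For PTH against vehicle, Bcl2 gave -0.63 without vehicle library 1 and -1.15 without vehicle library 2. Libraries of the 2 groups did not overlap for 6 of 10 members with PTH against vehicle (43.1% of all genes), 9 of 10 with YKL-05-093 against vehicle (37.8% of all genes) and 8 of 10 between the agents (50% of all genes). Nothing is read from these counts, since the members were chosen on these libraries. The median log2 fold change of the members was -0.01, -0.16 and 0.05 in the 3 comparisons, beside -0.03, -0.04 and 0.01 over all genes tested.

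**Figure D2:**
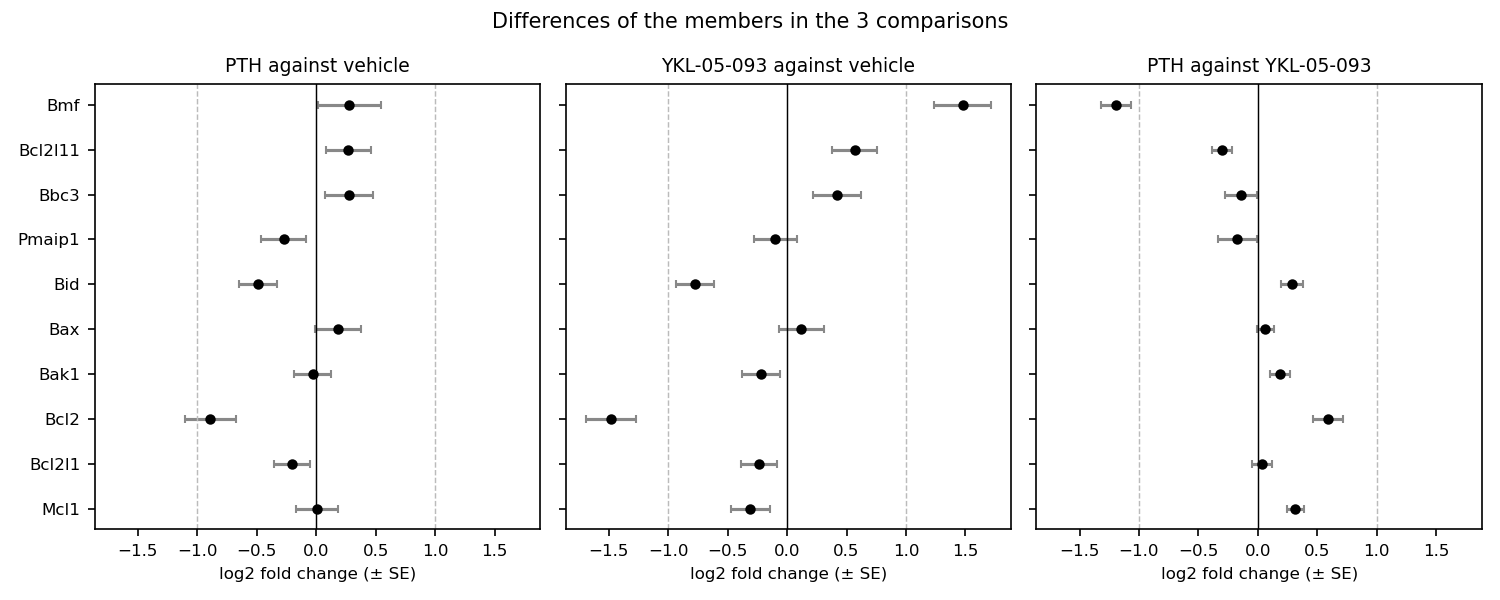
Log2 fold change of each member (horizontal axis, points with SE bars) in PTH against vehicle, YKL-05-093 against vehicle and PTH against YKL-05-093, with dashed lines at 2-fold. Only Bmf (1.48) and Bcl2 (-1.48) lay beyond 2-fold for YKL-05-093 against vehicle, only Bmf (-1.20) between the agents, and no member for PTH against vehicle.

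**Figure D3:**
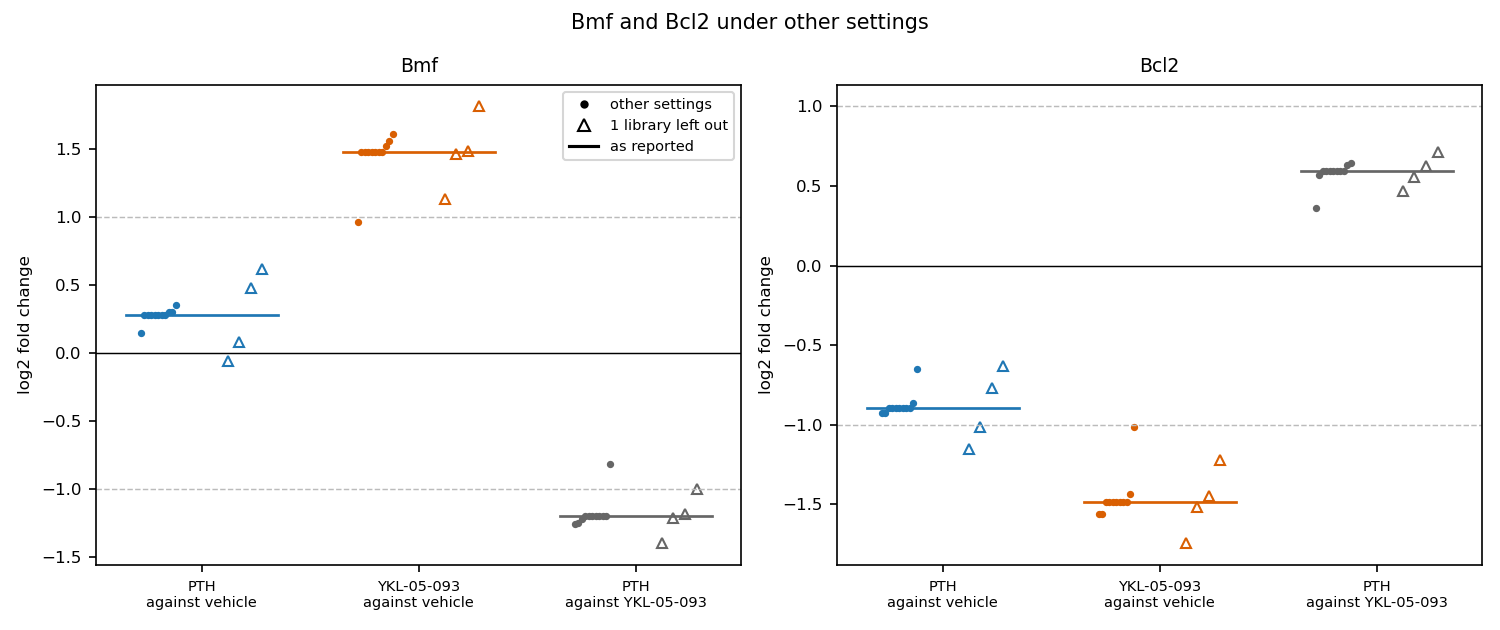
Log2 fold change of Bmf and Bcl2 (vertical axes) in the 3 comparisons as reported (lines), under the 11 other settings (dots) and with 1 library left out (triangles), with dashed lines at 2-fold. For YKL-05-093 against vehicle, Bmf ran from 0.96 to 1.81 and Bcl2 from -1.74 to -1.01, the values nearest to 0 being those with a pseudocount of 1.

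The ratio of Bmf to Bcl2 separated the 3 conditions, as Bcl2 alone did. Both genes were chosen on these libraries, so the ratio is a description and no further result. Bmf RPKM divided by Bcl2 RPKM was 0.329 and 0.284 in vehicle, 0.768 and 0.681 with PTH, and 2.80 and 2.60 with YKL-05-093. Bmf RNA was thus below Bcl2 RNA per length in the vehicle and PTH libraries and above it in both YKL-05-093 libraries. The ratio differed less between the 2 vehicle libraries than either gene alone, since both genes were lower in vehicle library 2. Bcl2l11 over Bcl2 was 1.10 and 1.18 in vehicle, 2.34 and 2.96 with PTH, and 5.16 and 4.97 with YKL-05-093. Mcl1 RNA outnumbered Bcl2 RNA per length throughout, by 14.3 and 18.8 times in vehicle, 30.0 and 32.8 times with PTH, and 41.0 and 37.4 times with YKL-05-093.

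Summed over roles, the 5 BH3-only genes stayed close together: 20.6 and 20.7 RPKM in vehicle, 19.4 and 18.0 with PTH, and 20.7 and 20.5 with YKL-05-093. With YKL-05-093 the higher Bmf, Bcl2l11 and Bbc3 stood beside a lower Bid, which was the largest part of the sum in every library. The 3 pro-survival genes summed to 62.9 and 56.8 RPKM in vehicle, 60.4 and 55.3 with PTH, and 47.7 and 46.2 with YKL-05-093. Both YKL-05-093 sums were below the other 4, and Mcl1 made up most of each sum. The effectors summed to 65.0 and 84.5 RPKM in vehicle, 85.5 and 79.4 with PTH, and 78.8 and 77.2 with YKL-05-093. The vehicle libraries lay on both sides of the YKL-05-093 libraries.

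**Figure D4:**
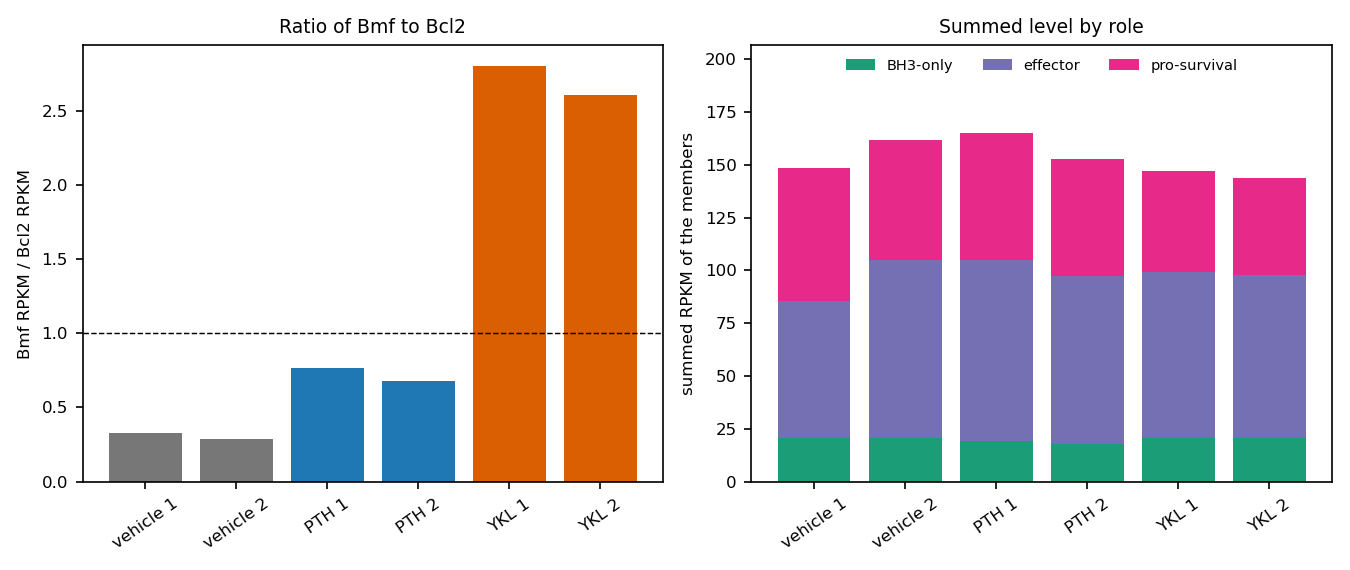
Left, Bmf RPKM divided by Bcl2 RPKM in each library, with a dashed line at 1, and right, summed RPKM of the BH3-only, effector and pro-survival members stacked in each library. The ratio was at most 0.329 in vehicle, 0.768 with PTH and at least 2.60 with YKL-05-093, while the BH3-only sum lay between 18.0 and 20.7 RPKM.

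The order of the levels per length was led everywhere by Bax and Mcl1, which exceeded 93.5% and 90.6% of tested genes by their mean over the 6 libraries. Bak1 and Bid followed, then Bcl2l1 and Bcl2l11. In vehicle, Bcl2l11 (3.61 RPKM), Bcl2 (3.19) and Bbc3 (3.08) could not be ordered, since neighbouring libraries overlapped, as they did for Bak1 and Bid, and Bmf was last at 0.991 RPKM. With PTH, Bmf was still last at 1.20 RPKM, and Pmaip1 (1.71) and Bcl2 (1.65) overlapped. With YKL-05-093 no neighbours overlapped, Bmf (2.85 RPKM) ranked 8 of 10 above Pmaip1 (1.94), and Bcl2 was last at 1.06 RPKM. Bcl2l11 (5.35) stood above Bcl2l1 (4.49) with YKL-05-093, whereas Bcl2l1 was the higher in vehicle and with PTH.

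Over the 6 libraries, the genes whose log2 RPKM followed Bmf most closely, ranked among the 11887 tested genes that averaged 50 reads or more, were Fbxo32 (Pearson r = 0.998), Adamts1 (0.987), Med20 (0.987), Sirpa (0.987) and Polr3c (0.987). Fbxo32, which encodes a muscle-atrophy ubiquitin ligase, measured 5.29 and 3.55 RPKM in vehicle, 5.59 and 4.56 with PTH, and 10.4 and 11.0 with YKL-05-093. Adamts1, a secreted protease, measured 14.3 and 10.7 RPKM in vehicle, 15.2 and 14.0 with PTH, and 32.2 and 33.7 with YKL-05-093. Both repeat the steps of Bmf at higher levels, including the lower vehicle library 2. That last trait is not particular to them: Huwe1 measured 18.3 and 8.85 RPKM in vehicle, and Foxo3 22.5 and 14.1. Other genes were higher in vehicle library 2, such as Bax (54.5 and 72.8 RPKM) and Dynll1 (50.5 and 67.6). Med20, Sirpa and Polr3c ran parallel over a much narrower range, Sirpa from 26.1 to 30.3 RPKM. Among the members, Bcl2l11 ranked 98 by likeness to Bmf (r = 0.908). The genes most like Bcl2 were Zrsr2 (0.998), Dnajc2 (0.996), Synj2 (0.995), Rnf150 (0.994) and Jrk (0.993). Rnf150, which encodes a RING finger protein, came closest to Bcl2 in span, at 2.28 and 1.62 RPKM in vehicle, 1.28 and 1.02 with PTH, and 0.728 and 0.857 with YKL-05-093. Bid ranked 268 by likeness to Bcl2 (r = 0.926). These 6 points are 3 conditions in pairs, so any gene with the same 3 steps scores high, and the values are a description.

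Around the family, 73 further genes of the apoptosis pathway were followed in 9 lists, and 62 of them passed the filter. The 11 that did not include Bcl2a1a, Bcl2a1b and Bcl2a1d, pro-survival genes of blood cells, which were at 0 in every library, and the BH3-only genes Bik and Hrk, which did not exceed 0.103 RPKM. A gene was called changed where limma gave an adjusted p under 0.05 and the fold was over 2 in either direction. PTH against vehicle called 2 of 62 (1.89% of all genes tested were called), both higher and both p53 target genes, YKL-05-093 against vehicle called 0 (0.666% of all genes), and PTH against YKL-05-093 called 1 (1.21% of all genes). These shares over all genes rest on 270, 95 and 172 calls, which ran from 22 to 670, from 11 to 320 and from 0 to 155 with 1 library left out. The median log2 fold changes of the 62 genes were -0.06, -0.02 and 0.02, beside -0.03, -0.04 and 0.01 over all genes. For the comparison with 0 calls, 8 of 62 (12.9%) had an unadjusted p under 0.05 by limma, as did 8.75% of all genes tested, and voom, run on the recovered reads, also called 0 of 62 and 95 of all genes.

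Gadd45a, a growth arrest gene induced by DNA damage and other stress, was the largest difference in the lists. It measured 1.51 and 1.72 RPKM in vehicle, 8.50 and 7.83 with PTH, and 3.21 and 3.62 with YKL-05-093. It rose with PTH by 2.27 on the log2 scale (SE 0.17, adjusted p = 0.00170 by limma, 0.0569 at most under the alternatives) and was higher with PTH than with YKL-05-093 by 1.23 (SE 0.12, adjusted p = 3.74e-06, 0.148 at most). Against vehicle, its YKL-05-093 value was 1.03 (SE 0.19, adjusted p = 0.0934 by limma, from 0.00633 to 0.840 under the alternatives). Trp53inp1, a p53-induced nuclear protein that also acts in autophagy, measured 5.37 and 3.60 RPKM in vehicle, 10.4 and 9.32 with PTH, and 10.8 and 11.4 with YKL-05-093. It rose with PTH by 1.14 (SE 0.22, adjusted p = 0.0469 by limma, 0.656 at most under the alternatives), while its YKL-05-093 value was 1.32 (SE 0.21, adjusted p = 0.0630, from 7.92e-05 to 0.547). Between the agents it differed by -0.17 (SE 0.07, adjusted p = 0.186). The other 8 p53 target genes, Cdkn1a and Mdm2 among them, were not called in any of the 3 comparisons.

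The other lists held no call at both limits, and each is given by its widest difference. Bok, a BAX relative, measured 128 and 177 RPKM in vehicle, 78.3 and 67.5 with PTH, and 132 and 128 with YKL-05-093. Its log2 fold change with PTH was -1.05 (SE 0.21, adjusted p = 0.0612 by limma). Myc was lower with PTH by adjusted p alone, at 14.0 and 14.5 RPKM in vehicle against 7.27 and 7.61 (log2 fold change -0.93, SE 0.15, adjusted p = 0.0281 by limma, 0.727 at most under the alternatives). The death receptor gene Fas measured 2.11 and 2.67 RPKM in vehicle, 5.17 and 4.42 with PTH, and 2.53 and 3.45 with YKL-05-093 (PTH against vehicle 0.98, SE 0.20, adjusted p = 0.0631 by limma). Dynll1, the gene of a dynein light chain, had -0.60 with PTH (SE 0.20, adjusted p = 0.237) and -0.48 with YKL-05-093 (SE 0.20, adjusted p = 0.560). Dynll2, the gene of another such chain, had -0.54 (SE 0.20, adjusted p = 0.295 by limma) and -0.46 (SE 0.19, adjusted p = 0.556). The effector caspase gene Casp6 had 0.70 (SE 0.20, adjusted p = 0.168), the caspase inhibitor Birc3 0.41 (SE 0.16, adjusted p = 0.311), the MCL1 ubiquitin ligase Huwe1 -0.36 (SE 0.32, adjusted p = 0.723, 0.16 without vehicle library 1 and -0.89 without vehicle library 2) and the BCL-W gene Bcl2l2 0.05 (SE 0.16, adjusted p = 0.932), all log2 fold changes for PTH against vehicle by limma.

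Between the agents, where the library pairs were tighter, more of the pathway passed when the fold limit was left aside. At an adjusted p under 0.05 alone, 12 of 62 genes passed (9.83% of all genes tested), 6 higher and 6 lower with PTH than with YKL-05-093. The same rule gave 3 of 62 for PTH against vehicle (2.17% of all genes), Gadd45a, Trp53inp1 and Myc, and 0 for YKL-05-093 against vehicle (0.666% of all genes). The 12 were named after their values were seen. Of 9 tested death receptor genes, 4 were higher with PTH: Fas by 0.68 (SE 0.16), Tnfrsf1a by 0.52 (SE 0.07), Cflar, the gene of the caspase 8 inhibitor FLIP, by 0.30 (SE 0.09) and Casp8 by 0.27 (SE 0.08), all on the log2 scale. This list thus joins activators of the pathway with 1 inhibitor. Bok at -0.84 (SE 0.08) and Bnip3 at -0.44 (SE 0.07) were lower with PTH than with YKL-05-093. Of 8 transcription factors of BH3-only genes, Foxo3 (-0.41, SE 0.07) and Ddit3, the gene of CHOP (-0.29, SE 0.07), were lower and Jun (0.27, SE 0.08) was higher. Of 10 p53 target genes, Sesn1 (-0.97, SE 0.07) and Cdkn1a, the gene of p21 (-0.44, SE 0.13), were lower and Gadd45a was higher. The adjusted p-values of the 12 by limma ran from 3.68e-07 for Sesn1 to 0.0488 for Cdkn1a. Each of the 12 was past 0.05 under at least 1 alternative. The alternatives include fits without a PTH library, where the limit was hard to reach for any gene, so this does not set the 12 apart. No apoptosome, effector caspase or caspase inhibitor gene passed in any of the 3 comparisons by either rule.

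**Figure D5:**
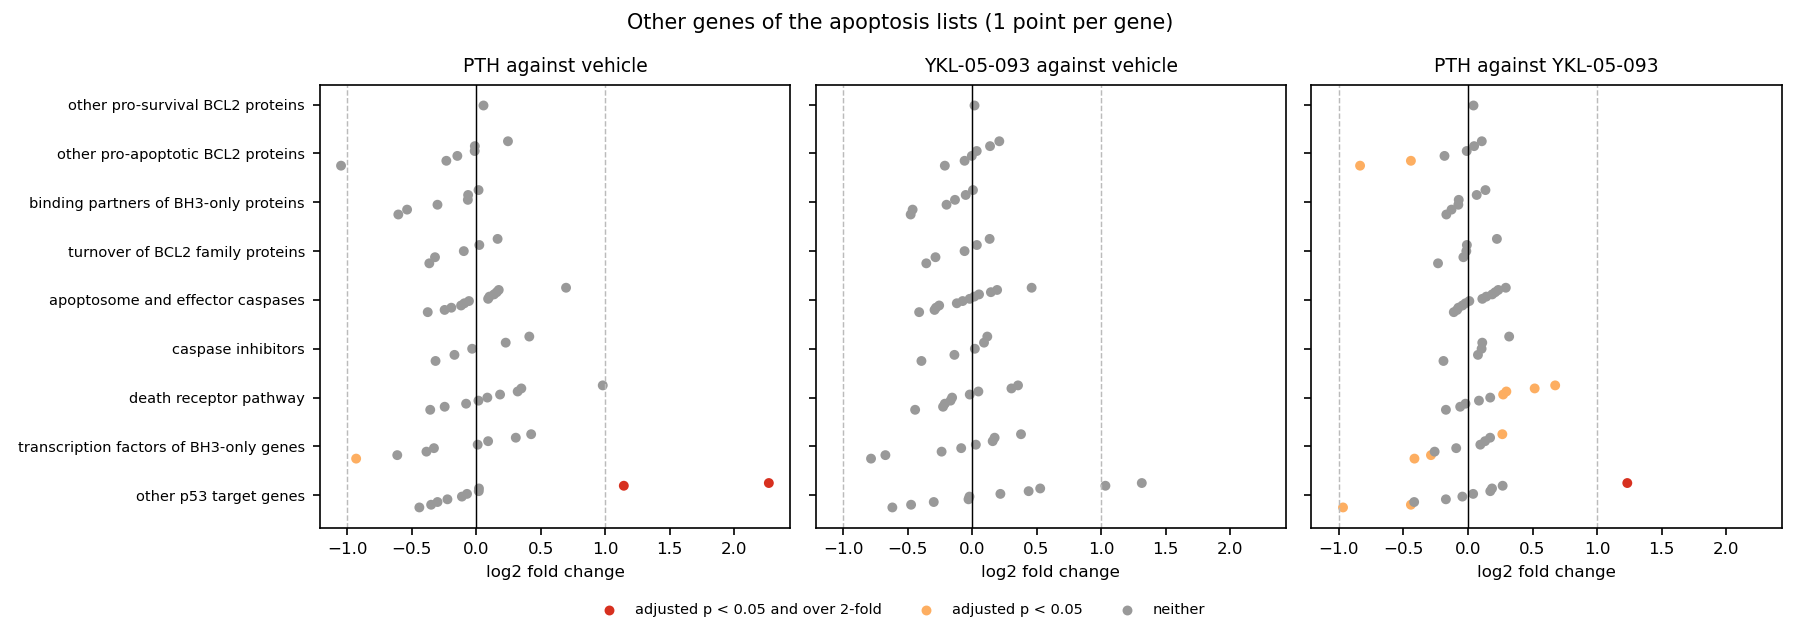
Log2 fold change of the 62 tested pathway genes (horizontal axis, 1 point a gene) by list (rows) in the 3 comparisons, with dashed lines at 2-fold. Red points, which met both limits, are Gadd45a and Trp53inp1 for PTH against vehicle and Gadd45a between the agents. Orange points, which met only the limit on adjusted p, are Myc for PTH against vehicle and, between the agents, the 12 genes named in the text without Gadd45a.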

How the data were processed

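RNA of Ocy454 cells was measured in 3 conditions, with 2 libraries each. The authors used STAR for alignment to the mm10 build (GRCm38) and HTSeq for counting on Ensembl release 75, and deposited RPKM values per gene and library, on a linear scale with no scaling factor between libraries. CASAVA 1.7 is named in the submitters' processing notes. The libraries were made with a strand-specific kit (NEBNext Ultra Directional), but whether counting used strand is not given in the sources used here. The study calls the 2 libraries of a condition experimental duplicates without saying that they came from separate cultures, so p-values measure only the spread between these libraries, which may be technical.

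Reads behind each RPKM value were recovered from the steps between values, and add up to 99.7% of the library totals. They cover counting error only. The filter on low values kept a gene that reached 0.5 RPKM in any 2 libraries, counted across the 3 conditions together. A gene could thus be tested between 2 conditions though it reached this level only with the help of the third. Genes that passed were tested on log2(RPKM + 0.1) with limma 3.58.1 (R 4.3.3). Each comparison was fitted separately, with the spread modelled on depth and Benjamini-Hochberg adjustment over all genes tested. Fold changes on this scale understate the change of low genes. An exact permutation test of 2 against 2 libraries cannot go below p = 0.333 (two-sided), so none is given. The scripts were tested on simulated data. For limma, these held larger changes than most given here and the same spread in all libraries. The test thus does not cover smaller changes or the wider vehicle pair.

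Positions come from GENCODE M21, and promoter windows from the RefSeq table of GRCm38.p6, of which 9 of 10 members were read. The members and the lists were chosen with earlier results of these data known. All members were named, with every pathway gene called, the gene of each list with the largest log2 fold change and at least 50 reads on average, and the 5 genes most like Bmf and Bcl2. The alternatives were other pseudocounts (0.01 and 1), filters, models of the spread, voom, centring, a replicate block, and leaving out each library.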

Additional observations from a re-analysis of the deposited data

How the results depend on the processing

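Of 450 member values under the alternatives, 443 moved by no more than 1 SD between replicates and 7 by more, 5 of these with a pseudocount of 1 (Bmf, YKL-05-093 against vehicle: 0.96; Bcl2: -1.01) and 2 with centring on the median, which moved the median of all genes by at most 0.05 (log2). The filters, the joint fit, the models of the spread and the replicate block cannot change a fold change. Leaving out 1 library moves it by less than the SD of that library's pair. Much of the 443 was thus fixed by the design. Smaller values were less settled: with 1 library left out, the sign changed for Bmf, Bax, Bak1 and Mcl1 in PTH against vehicle and for Bax in YKL-05-093 against vehicle. Among the pathway genes named, it changed for Huwe1 and Bcl2l2 in all 3 comparisons and for Bok in YKL-05-093 against vehicle, none of them called.

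The pathway counts were small and moved with the setting. For PTH against vehicle, 2 became 1 with a pseudocount of 0.01 or 1, a filter at 0.1 RPKM, the spread modelled on the mean value or no trend, 0 with no filter, and 0 to 3 with 1 library left out (0 without PTH library 1, 1 without PTH library 2). The count was also 3 with all 6 libraries in 1 fit and without vehicle library 1, where Bok joined Gadd45a and Trp53inp1, and by adjusted p alone, where Myc joined them. For YKL-05-093 against vehicle, 0 became 2 with all 6 libraries in 1 fit, 1 with centring, and 0 to 3 with 1 library left out (1 without vehicle library 1 and 3 without vehicle library 2, which added Foxo1 to Trp53inp1 and Gadd45a). For PTH against YKL-05-093, 1 became 0 with no trend, 12 by adjusted p alone, and 0 to 2 with 1 library left out (0 without either PTH library, 2 without YKL-05-093 library 1). The cause was not tested. With 1 library left out, the lone library is assumed to vary like the rest.

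With the replicate number as a replicate block, the pathway counts were 3 (with Bok), 2 and 1. Replicate differences correlated by -0.03, -0.05 and -0.05 between the conditions over all tested genes, which gives no sign of a replicate effect common to most genes. An effect on few genes, or one that differs by condition, would not be seen this way, and the labels name no batch. Over all genes, the block raised the calls from 270 to 435 (PTH against vehicle) and from 95 to 212 (YKL-05-093 against vehicle). Added calls did not always go with smaller SEs. For PTH against vehicle, the SE of Bok rose from 0.21 to 0.26 while its adjusted p by limma fell from 0.0612 to 0.00184. The SE of Gadd45a rose from 0.17 to 0.23, and that of Huwe1 fell from 0.32 to 0.27. With the block, less is left from which to estimate the spread, so its calls are not read as stronger results. In 1 fit of all 6 libraries, the calls were 173 for YKL-05-093 against vehicle, and 101 against 172 between the agents. With 1 library left out, calls over all genes ran from 22 (without PTH library 1) to 670 (without vehicle library 2) for PTH against vehicle, from 11 (without YKL-05-093 library 1) to 320 (without vehicle library 2) for YKL-05-093 against vehicle, and from 0 (without either PTH library) to 155 between the agents. With no filter on low values they were 0, 0 and 147, and 160, 6 and 137 where the mean RPKM took the place of depth in the trend.

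Depth limits the lowest members, Pmaip1 and Bbc3, which rest on 79 to 197 reads. Transcript isoforms, protein levels and cell death were not measured here.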
